A study of Mus musculus with 2 samples.

Results

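The inflammatory signalling genes Ccl2, Ccl3, Ccl4, Ccl12, Cxcl2, Tnf, Il1b, Il1rn and Nlrp3 were followed in the macrophages of mouse pancreatic islets. They are 9 of the 27998 genes in the deposited gene list, and they were chosen because their counts in this library were high in macrophages, so their levels there are a description and were not tested. Macrophages were taken by a rule on counts: a droplet barcode with at least 5610 UMIs (unique molecular identifiers, which count captured transcripts) and at least 500 genes, at least 2 UMIs of each of C1qb and Lyz2, and under 10% of its UMIs from Ins1 and Ins2. The rule found 61 of 4547 cells. The other 4486 cells, and free RNA read from 589592 droplets of 1 to 200 UMIs, served as background.

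The study set islets of wild-type mice (WT) beside islets of mice with miR-203 expressed from a beta-cell-specific transgene (miR-203 TG), with 1 library for each genotype. Both genotypes were 8-week-old males that had gone 12 hours without food, and cells were captured with the 10x Genomics 3′ kit, version 2. The number of mice behind each library is not given in the labels, nor is the promoter of the transgene. All values below come from the WT library unless the TG library is named. The copy of the TG matrix used here held 547 entries with 782 UMIs, and the rest was not analysed here; 1 of those UMIs was from Ccl4 and none from the other 8 genes, where 0.348 would come at the level of the WT free RNA, so the 2 groups cannot be compared.

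Islets hold resident macrophages that lie against the blood vessels and among the endocrine cells. When macrophages sense microbial products, dying cells or cytokines, signals through Toll-like and cytokine receptors activate NF-kappaB and related factors, which switch on chemokine and cytokine genes within hours. Chemokines draw leukocytes to the tissue, TNF and interleukin-1 act on neighbouring cells through their own receptors, and interleukin-1 receptor antagonist blocks the interleukin-1 receptor. Pro-interleukin-1 beta is cut to its active form by caspase-1 on the inflammasome, a complex whose sensor can be NLRP3. Interleukin-1 is known to impair beta cells at high dose.

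Of the 7 genes of this group with an entry among the RefSeq promoter windows of GRCm38.p6, 5 are shown here because they take the different roles described below: the chemokines Cxcl2, Ccl3 and Ccl12, and the cytokines Tnf and Il1b. Each sequence runs 5′ to 3′ on the gene's strand from 150 to 24 bases before the RefSeq start. Capitals mark matches to an NF-kappaB consensus, the AP-1 site TGANTCA, the C/EBP core TTNNGNAA or the TATA box TATAAA, searched on both strands.
Cxcl2: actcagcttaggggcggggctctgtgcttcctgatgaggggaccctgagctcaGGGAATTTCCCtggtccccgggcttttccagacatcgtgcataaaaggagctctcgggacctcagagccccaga
Ccl3: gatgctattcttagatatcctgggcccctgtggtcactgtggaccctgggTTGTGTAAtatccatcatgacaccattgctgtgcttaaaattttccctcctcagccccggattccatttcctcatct
Ccl12: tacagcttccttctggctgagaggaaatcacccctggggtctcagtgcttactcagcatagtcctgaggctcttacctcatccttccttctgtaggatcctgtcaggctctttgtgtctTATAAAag
Tnf: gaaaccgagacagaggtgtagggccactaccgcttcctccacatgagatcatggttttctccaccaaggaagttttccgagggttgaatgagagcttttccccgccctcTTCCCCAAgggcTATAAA
Il1b: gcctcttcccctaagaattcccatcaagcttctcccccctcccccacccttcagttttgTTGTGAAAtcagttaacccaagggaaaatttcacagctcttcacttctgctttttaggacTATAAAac

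These stretches lie at chr5:90903749-90903875 on the + strand (Cxcl2), chr11:83649402-83649528 on the - strand (Ccl3), chr11:82101695-82101821 on the + strand (Ccl12), chr17:35202031-35202157 on the - strand (Tnf) and chr2:129371163-129371289 on the - strand (Il1b). Over the 250 bases before the start, the part of each window that was searched, the NF-kappaB consensus matched in Cxcl2, 97 to 88 bases before the start with an overlapping match at 96 to 87, and in 1 of the Nlrp3 windows, 186 to 177 bases before it. Of all 32851 windows, 7.25% held that consensus. The TATA box stood in Ccl12 and Il1b 31 to 26 bases before the start and in Tnf 29 to 24 bases before it, and 12.4% of all windows held it. The 7 genes had 10 windows, since Il1rn and Nlrp3 had more than 1 each. The C/EBP core matched in 8 of the 10, from 6 genes (Ccl3, Cxcl2, Il1b, Il1rn, Nlrp3 and Tnf), and in 36.9% of all windows. The AP-1 site matched in 1 of the 10, a window of Il1rn, and in 6.75% of all windows. No window of the group held the PU.1 core GAGGAAGT, which 2.44% of all windows held. Ccl2 and Ccl4 had no entry.

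The cells of the rule carried macrophage transcripts. All 18 macrophage marker genes had at least 1 UMI, and Apoe at 25484 UMIs per 1000000 UMIs of the same cells (CPM) and Ctss at 4221 CPM led them. Of the 18, 16 reached 20 CPM. Itgam, at 5.93 CPM in 4 cells, and Mrc1, at 2.96 CPM in 2 cells, did not, and Cx3cr1 was found in 10 cells. The most abundant transcript of all was Cd74, the invariant chain of MHC class II, at 49611 CPM, and H2-Aa followed at 12059 CPM among the 4 class II genes. Of the markers of other blood cells, 5 of 6 neutrophil genes (S100a8, S100a9, Retnlg, Mmp9 and Cxcr2), all 4 mast cell genes and 5 of 7 T and NK cell genes were at 0; a gene at 0 of 675010 UMIs may still reach 4.44 CPM. The dendritic cell gene Itgax stood at 96.3 CPM and the monocyte gene Ccr2 at 37.0 CPM. The endothelial markers had UMIs in few of these cells, with a summed level from 0 to 12185 CPM and a median of 0. Each cell drew 1.67% to 3.97% of its UMIs from insulin, against 34.0% of free RNA, so at most 7.54% of their UMIs would be free RNA if all of that insulin came from it.

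Together the 9 genes made up 3.24% of all UMIs in the macrophages. Their summed level was 32377 CPM (exact Poisson 95% interval 31950 to 32809; all such intervals cover counting error only), against 68.1 CPM (66.5 to 69.7) in the other cells and 445 CPM (432 to 459) in free RNA. All 9 were at least 2-fold higher in the macrophages than in the other cells, a contrast in which 30.9% of 5227 genes were at least 2-fold higher and 55.9% at least 2-fold different in either direction. All 9 were also at least 2-fold higher than in free RNA, where 26.0% of 5492 genes were that much higher. Because the genes were chosen on these counts, nothing is read from those numbers. At most 33.6 CPM of the macrophages' 32377 would come from free RNA by the insulin reckoning above. The cells held between 6100 and 20478 UMIs with a median of 10694, and the other cells had a median of 21747. The library counts 3′ ends, so 1 transcript gives at most 1 UMI whatever its length, and levels are compared between genes without dividing by length.

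**Figure D1:**
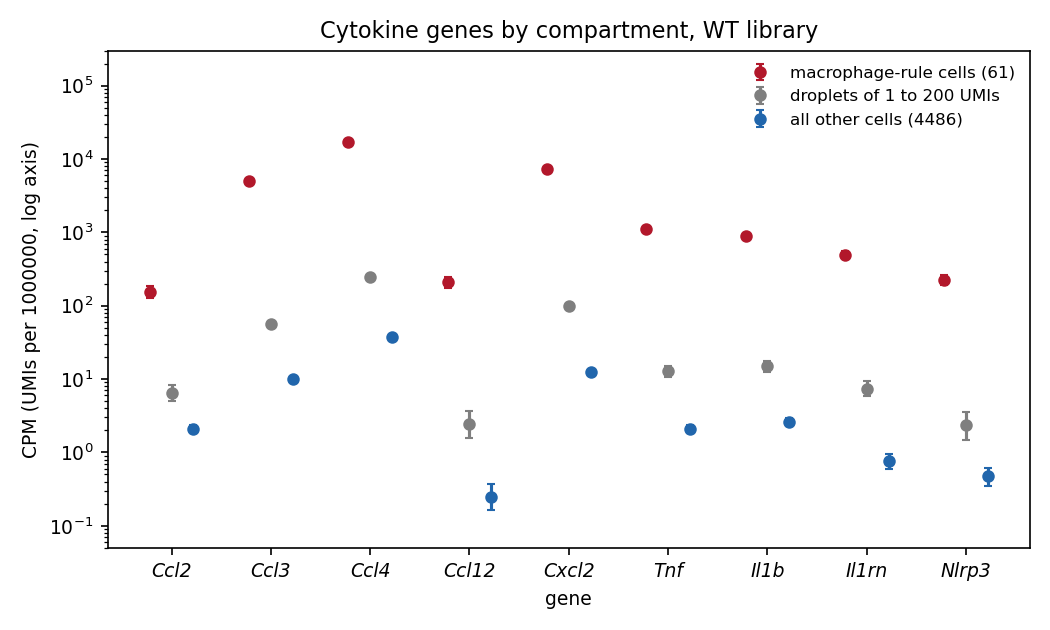
Level of each of the 9 genes, in CPM on a log axis, in the 61 macrophages (red), in droplets of 1 to 200 UMIs (grey) and in the 4486 other cells (blue), with exact Poisson 95% intervals. For every gene the macrophages lie highest and the other cells below the free RNA.

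The CC chemokines Ccl4 and Ccl3, which encode MIP-1 beta and MIP-1 alpha and attract leukocytes, were among the most abundant transcripts of the macrophages. Ccl4 (ENSMUSG00000018930, GRCm38 chr11:83662584-83664683) ranked number 7 of all genes. It ranged over the 61 cells from 0 to 1029 UMIs with a median of 76, and 52 cells held at least 1 UMI. Its summed level was 16960 CPM, 453-fold that of the other cells at 37.5 CPM and 69.6-fold that of free RNA at 244 CPM. Ccl3 (ENSMUSG00000000982, chr11:83647844-83649355), its neighbour on the same chromosome, ranged from 0 to 496 UMIs with a median of 16 in 49 cells with a UMI, and stood at 5074 CPM (4905 to 5247). Ccl4 exceeded Ccl3 in 48 of the 61 cells and Ccl3 exceeded Ccl4 in 6, with 3.34 Ccl4 UMIs for each Ccl3 UMI in sum.

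Cxcl2 (ENSMUSG00000058427, chr5:90903871-90905938), a chemokine for neutrophils through CXCR2, was the gene of the group found in the most cells. It ranged from 0 to 449 UMIs per cell with a median of 43, and 55 cells held a UMI. Its level of 7219 CPM (7018 to 7425) lay between those of Ccl4 and Ccl3. After each cell was thinned to 5610 UMIs, 88.5% of macrophages would hold a Cxcl2 UMI, 82.9% a Ccl4 UMI and 71.3% a Ccl3 UMI, against 11.8% of the other cells for Ccl4 and 3.88% for Ccl3.

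Ccl2 and Ccl12, ligands of CCR2 that draw monocytes, were low in most macrophages and high in a few. Ccl2 (ENSMUSG00000035385, chr11:82035571-82037453) ranged from 0 to 27 UMIs with a median of 0, and 16 cells held a UMI. It stood at 154 CPM (126 to 187), and the 6 cells richest in it held 82.7% of its UMIs. Ccl12 (ENSMUSG00000035352, chr11:82101845-82103400) ranged from 0 to 55 UMIs with a median of 0 in 17 cells with a UMI, and stood at 209 CPM (176 to 246). Its level rested in part on 1 cell: without it Ccl12 stood at 129 CPM, and in the 38 macrophages of at least 10000 UMIs at 126 CPM. The 2 intervals of Ccl2 and Ccl12 overlap. UMIs of both were found in 5 cells and of either in 28, with Spearman's rho 0.10 between their levels over the 61 cells.

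Tnf and Il1b, the genes of TNF and pro-interleukin-1 beta, were next in level after Ccl3, above Ccl2 and Ccl12. Tnf (ENSMUSG00000024401, chr17:35199381-35202007) ranged from 0 to 118 UMIs per cell with a median of 5 in 53 cells with a UMI, and stood at 1130 CPM (1052 to 1213). Il1b (ENSMUSG00000027398, chr2:129364570-129371139) ranged from 0 to 71 UMIs with a median of 1. Its 42 cells with a UMI were split, since 12 held a single UMI and 20 held at least 10. Its level of 905 CPM (835 to 980) lay below that of Tnf beyond counting error, which leaves out the spread between cells. Without the cell richest in Tnf, Tnf stood at 972 CPM, inside the interval of Il1b. Without the cell richest in Il1b, Il1b stood at 812 CPM.

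Il1rn (ENSMUSG00000026981, chr2:24336853-24351494), which encodes the antagonist that competes with interleukin-1 for its receptor, ranged from 0 to 32 UMIs with a median of 3 in 36 cells with a UMI. Its level was 499 CPM (447 to 556). In sum there were 1.81 Il1b UMIs for each Il1rn UMI, but the cells differed: 29 held more Il1b, 21 held more Il1rn, 2 held equal numbers and 9 held neither. Both genes were found together in 26 cells. Nlrp3 (ENSMUSG00000032691, chr11:59541568-59566956), the inflammasome sensor, ranged from 0 to 10 UMIs with a median of 1 in 44 cells with a UMI. It stood at 227 CPM (192 to 266), an interval that overlaps that of Ccl12, and was the most evenly spread of the 9, with 32.7% of its UMIs in its 6 richest cells. Il1b and Nlrp3 were found together in 32 of the 61 macrophages (52.5%, exact binomial 95% interval 39.3% to 65.4%), and Tnf, Il1b and Nlrp3 in 30.

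In the annotation of GENCODE, Il1b overlaps the antisense gene Il1bos and Ccl2 overlaps the antisense gene Gm17268. The sources used here do not say how the counting treated strand. The macrophages held 1 UMI of Il1bos and 0 of Gm17268.

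**Figure D2:**
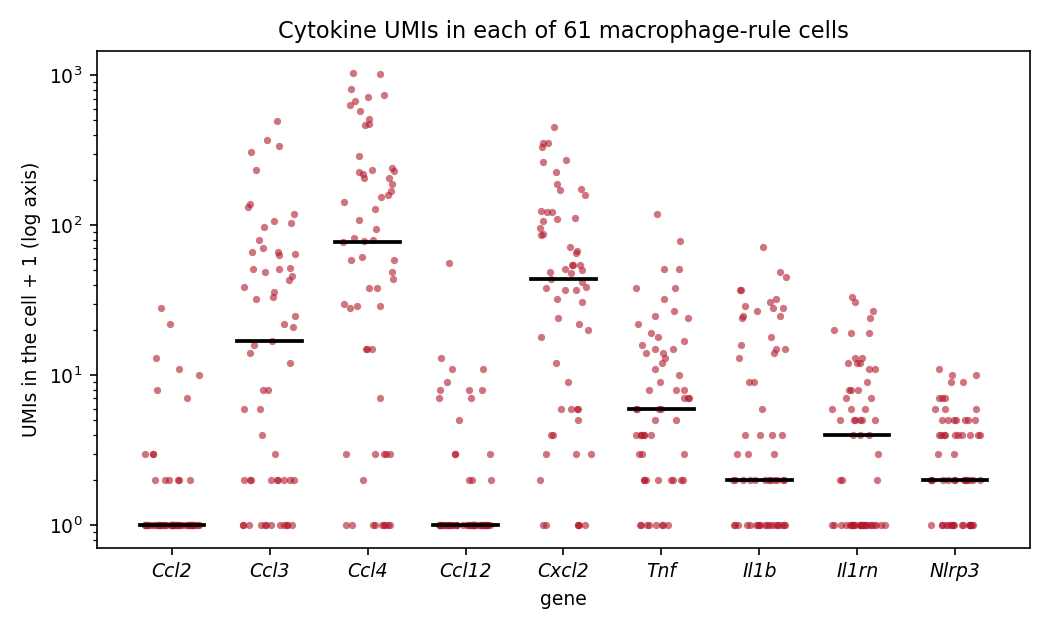
UMIs of each gene in each of the 61 macrophages, plotted as UMIs + 1 on a log axis so that a cell without a UMI lies at 1; black bars are medians over cells. Ccl4 and Cxcl2 have medians of 76 and 43 UMIs, while Ccl2 and Ccl12 have medians of 0 and a few cells far above the rest.

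Most macrophages held several of these transcripts at once. At least 5 of the 9 genes were detected in 49 of 61 cells (80.3%, exact binomial 95% interval 68.2% to 89.4%), or in 68.3% when each cell was thinned to 5610 UMIs. All 9 were found in 3 cells, and the cell with the fewest held 1 of them. Ccl3, Ccl4 and Cxcl2 were found together in 43 cells. The gene with the most UMIs was Ccl4 in 33 cells and Cxcl2 in 23, and another gene of the group, Ccl12, Tnf, Il1b or Il1rn, led in 5, with 1 tie among the 61.

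The share of a macrophage's UMIs taken by the 9 genes varied widely. It ran from 275 CPM to 149303 CPM with a median of 18398 CPM. In 5 cells the 9 genes made up more than 100000 CPM, from 11.8% to 14.9% of the cell's UMIs, and in 3 cells they stayed under 1000 CPM. The 6 cells with the most of these UMIs held 38.3% of them. The cell with the highest share held 733 UMIs of Ccl4, 496 of Ccl3 and 329 of Cxcl2 among 10904, and the 2 cells with the lowest shares held 3 and 4 UMIs of the group. These 2 cells also held few UMIs of the genes of the rule, with 8 and 7 of C1qb and 3 and 2 of Lyz2, where the medians were 41 and 15.

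**Figure D3:**
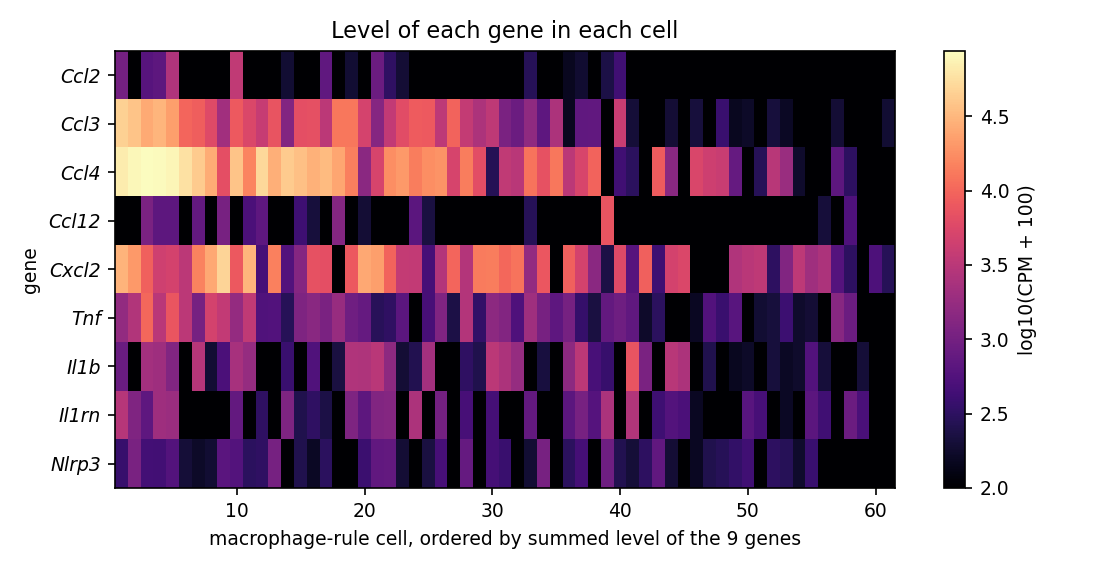
Level of the 9 genes (rows) in each of the 61 macrophages (columns), ordered from the highest to the lowest summed level; colour gives log10 of CPM plus 100. The 5 cells on the left, at 118493 to 149303 CPM in sum, are bright in Ccl3 and Ccl4, whereas Il1b and Il1rn are spread along the whole order.

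Over the 61 cells the genes fell into different pairings. Ccl3 and Ccl4 varied most closely together (Spearman's rho 0.83 between their CPM, a description over 61 cells of 1 library), and Tnf followed both, with rho 0.63 to Ccl3 and 0.62 to Ccl4. Il1b did not follow Ccl4, with rho 0.01, and had its highest values with Cxcl2, at 0.45, and Il1rn, at 0.35. Cxcl2 did not stand apart from Ccl3, Tnf and Ccl4, with rho 0.45, 0.36 and 0.26 to them. At 1000 CPM or more, Ccl4 was found in 44 cells and Il1b in 20, with both in 16, Ccl4 without Il1b in 28 and Il1b without Ccl4 in 4. Ccl2 had its highest rho with Il1rn, 0.51, over the 14 cells that held both and the others that lacked either. Over all 36 pairs rho ran from -0.02 to 0.83 with a median of 0.26, and 4 pairs were above 0.5. Low counts limit rho for Ccl2, Ccl12, Nlrp3 and Il1b, whose medians were 0, 0, 1 and 1 UMIs, and all these values share the cell's total as a divisor.

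**Figure D4:**
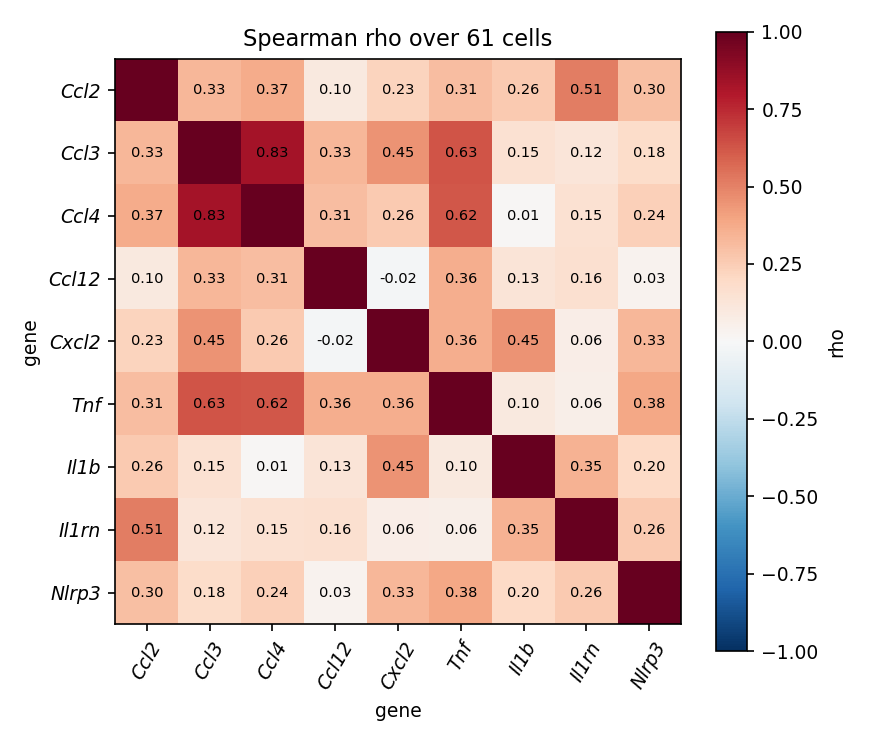
Spearman's rho between the levels of each pair of the 9 genes over the 61 macrophages, in red for positive and blue for negative values. Ccl3, Ccl4 and Tnf form the darkest block, at 0.62 to 0.83, and the cell for Ccl4 with Il1b is near white at 0.01.

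Beside these differences between cells, the summed level of the 9 genes had rho -0.02 with the cell's UMI total, -0.34 with its number of genes, 0.30 with its insulin share and -0.05 with its mitochondrial share. A list of immediate early and heat shock genes, which tissue dissociation is known to induce, had a summed level from 2248 to 65687 CPM over the macrophages. Its rho was 0.37 with the summed level of the 9 genes, but the single genes differed. They ran from -0.35 for Il1rn, -0.15 for Il1b and -0.01 for Ccl2 to 0.33 for Ccl4, 0.40 for Tnf and 0.41 for Ccl3. The highest of that list were the chaperone genes Hspa8 at 3338 CPM (rho 0.27 with the summed level) and Hspa1a at 1877 CPM (0.20). Among list genes with a UMI in at least 25% of macrophages, rho ran from -0.12 for Fos (213 CPM) to 0.51 for Atf3 (361 CPM). Hspa1b (0.50) and Klf6 (0.46) came next below Atf3. These 4 were singled out after their values were seen. Of the 18 genes of the list with at least 20 CPM in either set of cells, 4 were at least 2-fold higher in macrophages than in other cells. Another 5 were at least 2-fold lower, and the median log2 ratio was -0.63. Over all 5227 genes 30.9% were at least 2-fold higher, with a median of 0.20. The part of sample handling in the levels of the 9 genes was not tested.

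Which other transcripts varied like the 9 genes was read from rho over the 61 cells, among 2931 genes with a UMI in at least 25% of them, where the median rho was -0.07. The 10 genes closest to the summed level were Isg15 (0.62), Il1a (0.60), Ccrl2 (0.60), Rgs1 (0.59), Csrnp1 (0.59), Cdkn1a (0.57), Tnfaip3 (0.57), Ccl5 (0.54), Cxcl10 (0.54) and Oasl1 (0.54). Isg15 and Oasl1 are interferon-induced genes, Il1a encodes interleukin-1 alpha and Tnfaip3 encodes A20, a brake on NF-kappaB. Single genes of the group had different partners. Closest to Ccl4 were Cxcl10 (0.70), D1Ertd622e (0.66) and Isg15 (0.63), and closest to Ccl3 were Isg15 (0.60), Rgs1 (0.55) and Il1a (0.54). Closest to Tnf were Rgs1 (0.59), Csrnp1 (0.56) and Isg15 (0.54).

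Closest to Cxcl2 were Il1a (0.59), Maff (0.51) and Blcap (0.45), and closest to Il1b were Il1a (0.46), Med29 (0.40) and Sod2 (0.38). Il1a and Il1b are the 2 interleukin-1 ligands, and Il1a was found in 34 of the 61 cells at 400 CPM. Closest to Il1rn were Ifi205 (0.67), Socs3 (0.63), the gene of a feedback inhibitor of cytokine receptors, and Mnda (0.63). Closest to Ccl2 was Ccl7 (0.63), which encodes another CCR2 ligand, ahead of Plaur (0.48) and Rab12 (0.46). Closest to Ccl12 were Rraga (0.55), Slamf7 (0.48) and Irf7 (0.47), and closest to Nlrp3 were Bcl2a1b (0.49), Rbm7 (0.49) and Plaur (0.47). These partners are the highest of 2931 genes, whose 95th percentile of rho ran from 0.21 for Il1b to 0.29 for Il1rn. Not all held without the 10 cells of fewest UMIs. Plaur then ranked 77 for Ccl2, Irf7 51 for Ccl12, and Sod2 29 and Med29 12 for Il1b. Of the 10 genes named for the summed level, Cxcl10 then ranked 20 and Oasl1 11. Ccl7 for Ccl2, Ifi205 for Il1rn and Il1a for Cxcl2 stayed first.

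The interferon-response list of 15 genes varied with Ccl4 more closely than with Il1b. The rho of its summed level was 0.71 with Ccl4, 0.50 with Ccl3 and 0.47 with Tnf, but 0.02 with Cxcl2 and -0.03 with Il1b. All 15 genes of that list were at least 2-fold higher in macrophages than in the other cells, against 30.9% of all 5227 genes. Their median log2 ratio was 5.06, against 0.20 for all genes, and Rsad2 at 2905 CPM and Cxcl10 at 2628 CPM led them. The list was chosen with earlier results of these data known. The list holds Cxcl10, which also stands in the list of chemokines. The macrophage marker list had rho 0.01 with Ccl4 and 0.13 with Il1b.

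**Figure D5:**
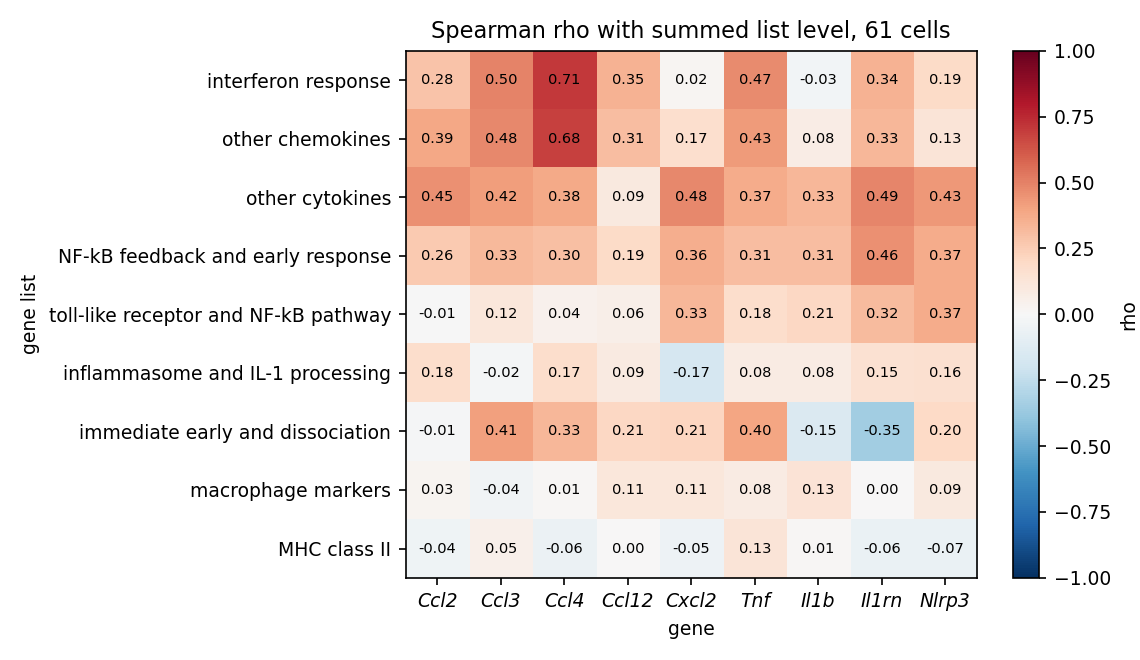
Spearman's rho over the 61 macrophages between each of the 9 genes and the summed level of 9 gene lists. The interferon-response row runs from 0.71 at Ccl4 to -0.03 at Il1b, and the rows of macrophage markers and MHC class II stay between -0.07 and 0.13.

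Other chemokines accompanied the 5 of this group. Of 18 genes in a list of further chemokines, which also holds the chemokine receptor-like gene Ccrl2 (267 CPM), 15 had UMIs in the macrophages. All 11 with at least 20 CPM were at least 2-fold higher than in other cells, with a median log2 ratio of 6.37. Over all 5227 genes 30.9% were that much higher, with a median of 0.20. Ccl5, which encodes RANTES, stood at 5093 CPM, level with Ccl3 within counting error, and Cxcl10, the interferon-induced CXCR3 ligand, at 2628 CPM. Ccl8, Ccl24 and Cxcl12 were at 0. Among 23 further cytokine genes 11 were compared and 9 were at least 2-fold higher (median log2 ratio 5.10), led by Il10, the gene of an anti-inflammatory cytokine, at 418 CPM, and Il1a at 400 CPM. Il6 and Ifnb1, singled out after their values were seen, stood at 182 and 130 CPM, and their 6 richest cells held 80.5% and 88.6% of their UMIs.

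Genes that act upstream of these cytokines and process them were also measured, where 30.9% of all 5227 genes were at least 2-fold higher (median log2 ratio 0.20). In the Toll-like receptor and NF-kappaB list, 11 of 15 compared genes were at least 2-fold higher and 2 lower (median log2 ratio 2.64), led by Cd14, the co-receptor for lipopolysaccharide, at 1542 CPM and Tlr2 at 345 CPM. Of the 21 NF-kappaB feedback and early-response genes 19 were at least 2-fold higher and none lower (median 3.18), led by Nfkbia, the gene of IkappaB alpha, at 1572 CPM and Cd83 at 1006 CPM. Of the 8 inflammasome genes compared, 6 were higher and 1 lower (median 3.70). Casp4 stood at 130 CPM and Casp1, which encodes the enzyme that cuts pro-interleukin-1 beta, at 47.4 CPM, below Nlrp3 at 227 CPM. Of 14 alternative-activation genes only Il10 and Stab1 passed 20 CPM and both were higher; 8 were at 0, among them Arg1, Retnla, Cd163 and Folr2.

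When hormone and mitochondrially encoded UMIs were left out of the totals, the median of all genes shifted by -1.03 on the log2 scale, and 17.4% of them were at least 2-fold higher and 45.7% lower. The 9 genes all stayed at least 2-fold higher (median log2 ratio 7.64, against 8.15 with all UMIs). On that scale 8 of the 15 Toll-like receptor and NF-kappaB genes, 13 of the 21 feedback genes, 13 of the 15 interferon genes and 2 of the 18 immediate early and heat shock genes were at least 2-fold higher, and 11 of those 18 lower. The counts of higher genes in the lists of chemokines, cytokines, inflammasome genes and receptors were 11, 9, 6 and 6 on both scales.

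Receptors for these ligands were found in the macrophages and in other cells. Among the 7 receptor genes compared 6 were at least 2-fold higher in macrophages, against 30.9% of all 5227 genes, and 1, Il1r1, lower. Tnfrsf1b, which encodes TNF receptor 2, stood at 256 CPM (220 to 297) in 43 of 61 macrophages, and Ccr1 at 135 CPM (109 to 166) in 30. Tnfrsf1a, which encodes TNF receptor 1, stood at 83.0 CPM in macrophages and at 181 CPM in the 98 cells with at least 2 UMIs of each of the endothelial genes Pecam1 and Plvap, against 14.3 CPM in the 3567 cells where insulin was the leading hormone and 22.4 CPM in free RNA. Il1r1, the gene of the signalling interleukin-1 receptor, stood at 11.9 CPM in macrophages and at 75.7 CPM in the insulin-led cells, of which 2793 held a UMI. Free RNA held Il1r1 at 75.0 CPM. It stood at 50.1 CPM in cells where Gcg led, 49.1 where Sst led, 35.4 where Ppy led and 38.3 in the endothelial cells. Il1r2, the gene of the decoy receptor, stood at 22.2 CPM in macrophages. Cxcr2, the receptor gene for Cxcl2's product, and the atypical receptor genes Ackr1 and Ackr2 were at 0 in macrophages.

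Outside the macrophages the 9 genes lay below the level of free RNA, and their UMIs there were counted as background except in the few cells described next. Their ratio in other cells to free RNA ran from 0.10 for Ccl12 and Il1rn to 0.32 for Ccl2. With hormone and mitochondrial UMIs left out, the summed levels were 149 CPM in other cells and 922 CPM in free RNA, and macrophages stood at 34307 CPM. For 8 of the 9 genes the number of UMIs per UMI of C1qb in other cells and in free RNA was within 2-fold of that in macrophages, as for Ccl3 at 1.26 in macrophages, 1.22 in other cells and 1.43 in free RNA. Ccl2 departed from this, with 0.04 in macrophages, 0.26 in other cells and 0.16 in free RNA. These ratios depend on C1qb as the reference. Per C1qb UMI, C1qc stood at 0.57 in macrophages and 0.53 in other cells, but C1qa at 0.76 and 4.36. Lyz2 stood at 0.48 and 1.47, with 877 of its 1247 UMIs in other cells held by 1 cell. The 46 other cells with at least 2 UMIs of C1qb held 38.9% of the UMIs of the 9 genes in other cells. The 61 macrophages held 76.9% of all Ccl3 UMIs found in cells and 74.6% of those of Ccl4, but 32.3% of those of Ccl2.

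A small number of other cells held a large share of the UMIs found outside the macrophages. Of the 4486, 22 cells held at least 10 UMIs of the 9 genes and together 41.4% of all such UMIs outside the macrophages, and 15 of these had at least 2 UMIs of C1qb. Without the 46 cells that had at least 2 UMIs of C1qb, the summed level in other cells was 42.1 CPM. No doublet caller was run. In 10 cells with at least 2 UMIs of both marker genes and at least 10% insulin, the summed level was 7050 CPM (6716 to 7397), with 1108 UMIs of Ccl4 and 215 of Cxcl2. Just outside the rule lay 14 low-insulin cells with at least 2 C1qb but under 2 Lyz2 UMIs and 5 with the reverse, and just inside it 1 cell with exactly 2 Lyz2 UMIs. The summed level of 3400 CPM in 15 cells with at least 2 UMIs of each of the B cell genes Cd79a and Cd79b came almost whole from 1 cell, with 658 of their 667 UMIs and 13 UMIs of C1qb, and was 50.8 CPM without it.

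Cells led by a hormone held the 9 genes at low levels. The summed level was 39.1 CPM (37.8 to 40.4) where insulin led, 59.3 CPM where Gcg led (472 cells), 52.0 CPM (39.1 to 67.9) where Sst led (105 cells) and 52.1 CPM (44.4 to 60.7) where Ppy led (157 cells). The last 3 overlap in their intervals, Gcg-led cells at 54.1 to 64.9, and their own insulin share would place up to 35.1, 33.5 and 45.2 CPM of free RNA in them. Of single cells, 1 insulin-led cell held 17 UMIs of Il1b and 3 of Il1rn without C1qb UMIs, and 1 cell outside all the groups held 101 UMIs of Cxcl2 and 5 of Ccl2 with 3 of Lyz2.

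Ccl2 was also found at higher levels in a few cells outside the macrophages. In the 98 cells of the endothelial rule it stood at 65.8 CPM (49.6 to 85.7), where at most 0.40 CPM would be free RNA by their insulin share. Its 55 UMIs there lay in 8 cells, 22 of them in 1 cell, without which the level was 39.8 CPM, and it was 55.6 CPM without the 1 cell of this group that held at least 2 UMIs of C1qb. In 5 cells with at least 2 UMIs of each of the mesenchymal genes Col1a2 and Col3a1 it stood at 208 CPM (119 to 338) from 16 UMIs, an interval that overlaps that of the macrophages at 126 to 187, while insulin-led cells held 0.51 CPM. Of those 16 UMIs, 8 lay in 1 cell that also held 9 UMIs of C1qb. Of 13 cells outside the macrophages with at least 4 Ccl2 UMIs, 5 met the endothelial and 2 the mesenchymal rule. Another 2 were Gcg-led, 1 was Ppy-led with 15 Ccl2 UMIs, 1 held both macrophage markers with insulin over the limit, 2 were in no group and none was insulin-led. At least 2 UMIs of C1qb were held by 4 of the 13. These 13 held 139 of the 218 Ccl2 UMIs found outside. Of the other 8 genes, Ccl4 stood at 27.5 CPM in the endothelial cells, Cxcl2 at 25.1 CPM, Ccl3 at 14.4 CPM and Il1b at 3.59 CPM from 3 UMIs. Tnf and Il1rn stood there at 1.20 CPM from 1 UMI each, and Ccl12 and Nlrp3 at 0, where the interval reaches 4.41 CPM. These groups are ranges of counts and not cell types.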

How the data were processed

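The deposited values are whole-number UMI counts per gene and barcode, unfiltered and not normalized, per the file headers and the values. FastQC, Trimmomatic and the build mm10 are named, without versions, per the submitters' processing notes; which aligner, counter and annotation were used is not given in the sources used here. In the labels the preparation text describes intestinal goblet cells beside the islet tissue. Counts were summed over cells and divided by all UMIs of those cells (CPM). Log2 ratios used a pseudocount of 1 CPM and genes of at least 20 CPM in either set. With 1 library per group no test was run; Poisson and binomial intervals are exact, at 95%. Spearman's rho was taken between CPM values. The 9 genes, the lists and the markers were chosen with earlier results of these data known. Other genes are named by rule: the 10 closest to the sum and the 3 closest to each gene by rho, the 2 highest of each list, and all of a list with under 6 detected; the receptors, list members at 0 and the markers given beside them were chosen after their values were seen. Alternatives changed the UMI limit, the marker and insulin limits, the mitochondrial share, the totals, the free RNA range and the cells included; those leaving out C1qb cells, the richest cell of each gene, the 10 shallowest cells or the 9 genes' UMIs from the totals, and the lists with other totals, were chosen after seeing the data. Gene positions are from GENCODE for GRCm38. Python 3.11.15, numpy 2.4.6, scipy 1.17.1, pandas 2.3.3 and matplotlib 3.10.9 were used. A further receptor gene is not reported here.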

Additional observations from a re-analysis of the deposited data

Results flagged for a closer look

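A signal of the same 9 genes appeared in barcodes that the comparisons above leave out. Between 201 and 5609 UMIs lay 5548 barcodes, too small to count as cells, and 29 of them held at least 2 UMIs of each of C1qb and Lyz2, with a median of 1356 UMIs. In these 29 the 9 genes summed to 10694 CPM (exact Poisson 95% interval 9860 to 11579), from 607 of 56763 UMIs. The other barcodes of that range stood at 809 CPM and free RNA at 445 CPM. Ccl4 gave 200 of the 297 UMIs of the 9 genes in the 10 such barcodes of 1001 to 2000 UMIs, where the summed level was 21917 CPM, and 149 of 243 in the 10 of 2001 to 5609 UMIs, at 6675 CPM.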

How the results depend on the processing

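No paired analysis was possible because each group has 1 library. The summed level in macrophages, 32377 CPM as reported, was 31062 CPM with a limit of 2000 UMIs, 33387 with 10000, 33415 with at least 5 UMIs of each marker and 25769 with at least 1, 30979 with insulin under 20%, 32824 as the mean of the cells, 34307 without hormone and mitochondrial UMIs in the total and 30458 without the richest cell. In other cells, 68.1 CPM became 51.6 without cells holding a UMI of both markers, 149 without hormone and mitochondrial UMIs in the total, 80.6 with a limit of 2000 UMIs and 42.1 without cells of at least 2 C1qb UMIs. In free RNA, 445 CPM became 460 in droplets of 1 to 500 UMIs and 922 without hormone and mitochondrial UMIs. The cause of each shift was not tested. The share of macrophages with at least 5 genes ran from 68.3% to 81.6%, inside its interval. The median rho of the same 10 genes named for the summed level ran from 0.58 to 0.61, though their ranks changed. Of 99 single-gene values under alternatives 63 stayed inside the counting interval of the reported value, at 0.60 to 1.20 times it over all 99. Insulin under 5% and a mitochondrial share of at most 15% kept the same 61 cells. Their values therefore could not move, and they count among the 63. Of the 99, 2 values, both of Ccl12 (126 and 129 CPM), moved by more than 1.5 times. With 61 cells of 1 library, the spread between mice was not measured.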
